A study of Mus musculus with 44 samples.

Results

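Col1a1 and Col1a2 encode the alpha-1 and alpha-2 chains of type I collagen, the main protein of bone matrix, and were chosen as the genes behind the reporter by which the cells of these cultures had been sorted. All probe sets with either symbol were taken, a probe set being the group of array features that reads 1 transcript. They were 2 of 15964 named genes, with 4 of the 36701 probe sets on the 3 array types (A, B and C), 2 for each gene, and all 4 lay on array A. Arrays B and C held 0. Probe set 94305_at stood for Col1a1 and 101130_at for Col1a2, as the brighter of each pair, and 103709_at and 161156_r_at were the second probe sets. A probe set for GFP itself is not analysed here.

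The cells were cultured osteoblasts from the calvaria (skull cap) of newborn (7 day) mice with a green fluorescent protein (GFP) transgene, which flow sorting had parted into GFP-positive and GFP-negative cells, with RNA of the unsorted culture kept beside them. The 3 day 7 groups (GFP-negative, GFP-positive and unsorted) carried pOBCol3.6GFP, were grown in DMEM with fetal calf serum without additions, and came from Exp99, Exp101 and Exp103. The 3 day 17 groups carried pOBCol2.3GFP, received ascorbic acid and beta-glycerophosphate from day 7, and came from Exp100, Exp105 and Exp106. Each of the 6 groups therefore held 3 RNA samples, 1 per experiment. Day, transgene and additions changed together and cannot be told apart. The labels name experiments but do not state separate cultures or animals, so a p-value here reflects only how far these samples differ from each other, which may be technical.

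As background, type I collagen is a triple helix of 2 alpha-1 chains and 1 alpha-2 chain, so osteoblasts, fibroblasts and other connective tissue cells transcribe both genes together. Chains are hydroxylated and folded in the endoplasmic reticulum, exported as procollagen, trimmed outside the cell and cross-linked into fibrils. Both transgenes carry a fragment of the rat Col1a1 promoter, of which the longer is active from earlier osteoblast stages and the shorter mainly in differentiated osteoblasts, so GFP reports a piece of the promoter and not the level of the endogenous message.

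The proximal promoter of Col1a2 is shown as the sequence next to the start site of an endogenous gene, which the transgenes do not replace. In the table of RefSeq promoter sequences used here (GRCm38.p6), 1 of the 2 genes was matched. The 250 bases before the annotated start of Col1a2, chr6:4505368-4505617 on the plus strand, are printed with each CCAAT and GGGCGG (the CCAAT box and the GC box that Sp1 family factors bind) in capitals.
Col1a2: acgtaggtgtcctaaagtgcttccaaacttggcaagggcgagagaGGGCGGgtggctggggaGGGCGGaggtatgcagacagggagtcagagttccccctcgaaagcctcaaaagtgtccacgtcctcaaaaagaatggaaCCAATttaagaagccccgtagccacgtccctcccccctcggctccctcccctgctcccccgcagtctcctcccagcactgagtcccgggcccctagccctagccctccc
Searched on both strands, the window held 1 CCAAT, 109 bases before the start, and 2 GGGCGG, 205 and 188 bases before it, with no overlap between them. Of 32851 RefSeq windows of the same length, 33.8% held CCAAT and 32.7% held GGGCGG on either strand. These matches describe the sequence and no binding was measured.

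Intensities are given as deposited, on a linear scale, unless stated otherwise. On array A the trimmed mean intensity (2% of probe sets left out at each end) ranged from 1069 to 1766 over the 18 samples, and the number of arrays limits the precision. The 3 samples of Exp106 stood apart, with a mean correlation of 0.84 with the other 15 samples across array A probe sets, against 0.945 among those 15. The limma differences of the collagen genes at day 17 and between the days are given with and without them. Mature osteoblast genes mostly bore out the cell type at day 17 more than at day 7. Of 6 such genes tested, 5 were higher at day 17 in GFP-positive cells (median log2 difference 4.20, lowest -0.65). These 5 passed an adjusted p under 0.05 in limma, where 4.85% of all probe sets did in either direction. In GFP-negative cells 5 of 6 were higher (median 1.81, lowest -1.25), but only 2 passed, where 0.434% of all probe sets did. Ibsp (bone sialoprotein, made by mineralising osteoblasts) had the largest rise of these in both fractions. It measured 44 to 1758 in the sorted day 7 samples and 12642 to 127044 in the sorted day 17 samples.

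Col1a1 was among the most abundant signals of every sample. Its probe set 94305_at measured 94137, 39571 and 107061 in the day 7 GFP-negative cells of Exp99, Exp101 and Exp103, and 88894, 50611 and 94637 in the GFP-positive cells of the same experiments. The day 7 unsorted cultures measured 96800, 108878 and 87300. Exp101 gave the lowest value of both sorted fractions, while its unsorted culture gave the highest value of day 7. In the day 17 GFP-negative cells of Exp100, Exp105 and Exp106 the probe set measured 116179, 126926 and 195597, and in the GFP-positive cells 149806, 120207 and 223718. The day 17 unsorted cultures measured 141195, 141770 and 292811. Each day 17 group was highest in Exp106, and the GFP-positive and GFP-negative values overlapped on both days.

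For Col1a2, probe set 101130_at measured 71487, 36720 and 84541 in the day 7 GFP-negative cells (Exp99, Exp101 and Exp103), 74891, 42753 and 67583 in the GFP-positive cells, and 85633, 87737 and 63872 in the unsorted cultures. At day 17 (Exp100, Exp105 and Exp106) it measured 99049, 99906 and 164233 in GFP-negative cells, 121830, 111176 and 184830 in GFP-positive cells, and 104021, 115958 and 228711 in unsorted cultures. The lowest values were again both sorted fractions of Exp101 and the highest again the 3 samples of Exp106. Over the 18 samples, which share arrays and scaling, the log2 values of 94305_at and 101130_at correlated with r = 0.988, and over the 15 outside Exp106 with r = 0.976.

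**Figure D1:**
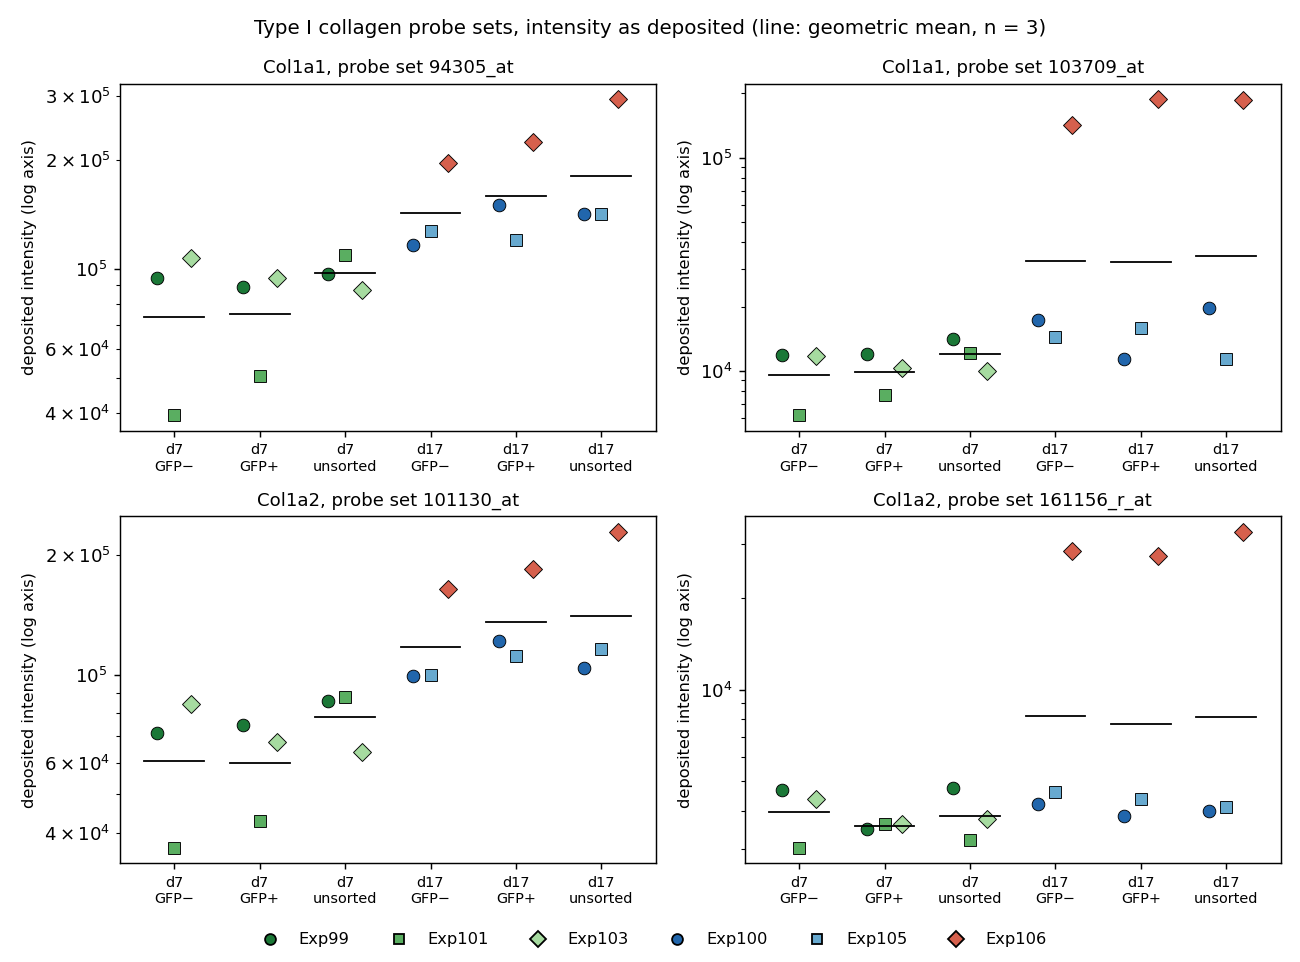
Deposited intensity (log axis) of the 4 type I collagen probe sets in each of the 6 groups; each point is 1 sample, its shape and colour the experiment, and the line the geometric mean of 3 samples. GFP-positive and GFP-negative points overlap on both days, and the Exp106 points lie far above the others for 103709_at and 161156_r_at.

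By rank among the 12422 probe sets of array A, 94305_at was the brightest on 4 of 18 arrays and within the brightest 10 on 13. The 4 were the 3 day 17 unsorted cultures and the GFP-positive cells of Exp106. In the other day 17 samples it ranked 2, and at day 7 it ranked between 3 and 82, with ranks 82 and 65 in the GFP-negative and GFP-positive cells of Exp101. Col1a2 (101130_at) ranked 2 to 6 at day 17 and 11 to 92 at day 7. The ribosomal protein gene Rpl41 held the top rank on the remaining 14 arrays. The second probe sets were dimmer: 103709_at ranked 3 to 707 and 161156_r_at 127 to 1962.

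**Figure D2:**
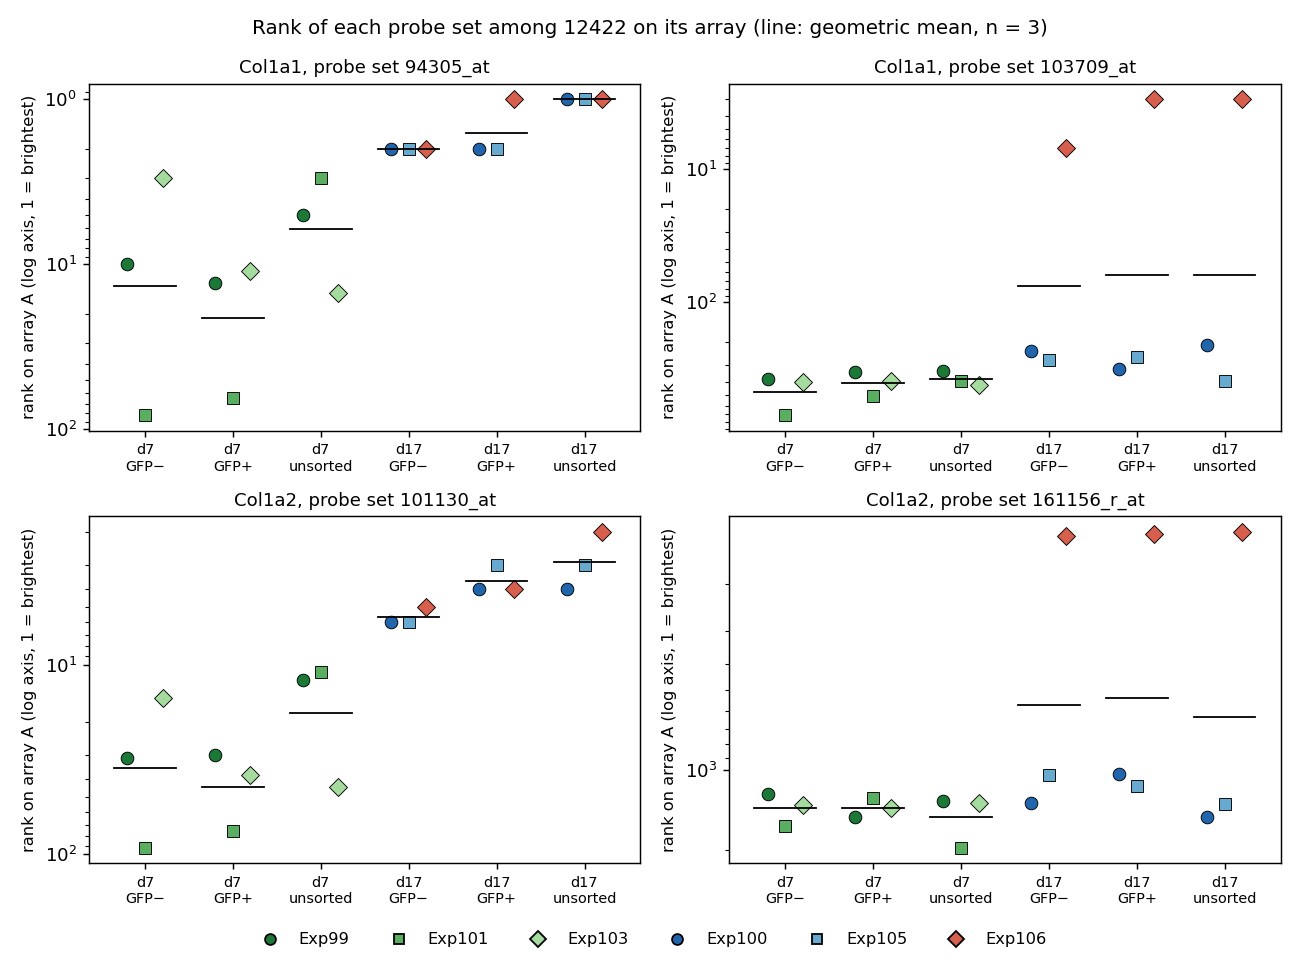
Rank of each probe set among 12422 on its array A (log axis, 1 is the brightest, upward is brighter) by group; points are samples and lines geometric means of 3. For 94305_at all 9 day 17 samples hold rank 1 or 2, and at day 7 the sorted fractions of Exp101 fall to 82 and 65.

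Because these probe sets lie at the top of the scale, saturation was looked for. The brightest value of an array ranged from 121244 to 292811, and from 121244 to 158280 outside Exp106, and was held by 1 probe set on each array. Col1a1 itself spanned 39571 to 292811. A ceiling in the scanned features, before summarization, was not tested. Very bright probe sets as a class varied less: the median SD between samples of a sorted group was 0.225 (log2) for the brightest 10 probe sets, 0.252 for the next 90, 0.369 for the 900 after those and 0.44 for the others above the median. Without Exp106 these were 0.13, 0.135, 0.239 and 0.306. The collagen probe sets varied more than the class they belong to, with an SD of 0.553 for 94305_at and 0.479 for 101130_at, or 0.478 and 0.387 without Exp106. The median size of the day 17 difference between fractions likewise ran from 0.102 for the brightest 10 to 0.324 for the dimmest of these classes (0.0812 to 0.394 without Exp106), and 0 of the brightest 10 differed by 1 or more on the log2 scale with or without Exp106.

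Quantile normalization, which gives all arrays the same set of values, adds a limit of its own at the top. After it, 94305_at took only 2 distinct values over the 6 sorted day 17 samples (132817 and 149225) and 101130_at only 4 (109144 to 120546). The differences of both genes are therefore also given as deposited and scaled to equal trimmed means.

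The sort addressed whether cells that express the reporter hold more of the endogenous message than cells that do not. At day 7 neither gene differed beyond the spread between experiments. Within Exp99, Exp101 and Exp103 the log2 difference of Col1a1, GFP-positive minus GFP-negative, was -0.08, 0.36 and -0.18 as deposited, and that of Col1a2 was 0.07, 0.22 and -0.32. After trimmed-mean scaling these were 0.13, 0.42 and 0.05 for Col1a1, and 0.28, 0.28 and -0.09 for Col1a2. In limma (n = 3 per group) the quantile-normalised difference of Col1a1 was -0.07 ± 0.35 (SE), with a 95% confidence interval of -0.82 to 0.68, and turned to 0.03 as deposited and 0.20 with trimmed-mean scaling. For Col1a2 it was -0.05 ± 0.28 (-0.64 to 0.55), -0.01 as deposited and turned to 0.15 with trimmed-mean scaling. Of 22099 probe sets tested on the 3 array types 0 (0%) passed an adjusted p under 0.05 at day 7, 396 had an unadjusted p under 0.05, and 0 of the 4 collagen probe sets passed.

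At day 17 the main probe sets were higher in GFP-positive cells as deposited in 2 of 3 experiments for Col1a1 and 3 of 3 for Col1a2. These counts come from the same samples and are not independent, and no limma difference passed. Col1a1 differed by 0.37, -0.08 and 0.19 in Exp100, Exp105 and Exp106 as deposited, and Col1a2 by 0.30, 0.15 and 0.17. By 101130_at, Col1a2 was thus higher in the GFP-positive cells of 3 of 3 experiments, between 1.11-fold and 1.23-fold. By 161156_r_at it was higher in 0 of 3 (-0.13, -0.08 and -0.05), and by 103709_at Col1a1 was higher in 2 of 3 (-0.60, 0.14 and 0.40). The limma difference of Col1a1 was 0.06 ± 0.35 (-0.70 to 0.81), or 0.16 as deposited and 0.31 with trimmed-mean scaling, with an adjusted p of 0.988 for the first. For Col1a2 it was 0.10 ± 0.28 (-0.50 to 0.69; adjusted p = 0.964), or 0.21 as deposited and 0.36 with trimmed-mean scaling. None of the 4 collagen probe sets passed, where 282 of 22099 (1.28%) did. Without Exp106 the quantile-normalised differences were 0.00 for Col1a1, whose 4 remaining samples hold the same rank and so 1 shared normalised value, and 0.12 for Col1a2. As deposited without Exp106 they were 0.14 and 0.23 (adjusted p = 0.918 and 0.825). Neither gene passed on either scale, where 3.69% of probe sets did on the first.

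The titles give the fractions of an experiment the same name, and with the experiment as a block the intervals narrowed. The pairing rests on these names, as correlations between fractions at day 17 did not show that those of Exp100 are paired. The 95% interval of the blocked difference of Col1a1 was -0.35 to 0.22 at day 7 and -0.23 to 0.34 at day 17, and that of Col1a2 was -0.34 to 0.25 and -0.20 to 0.39. With the block on the trimmed-mean scale the day 17 intervals were -0.16 to 0.78 for Col1a1 and -0.05 to 0.77 for Col1a2. On that scale an excess of up to 1.71-fold and 1.70-fold in GFP-positive cells lies inside the intervals, so equal levels were not shown. With the block, 710 probe sets (3.21%) passed at day 17, and neither Col1a1 nor Col1a2 was among them on either scale.

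The exact permutation test on deposited log2 values (two-sided, 3 against 3, smallest possible p 0.1) did not use the pairing by experiment. It gave p of 0.4 to 1 over the 4 probe sets and 2 days, and 1 for all 8 after Benjamini-Hochberg adjustment. The change of the difference from day 7 to day 17 was 0.12 ± 0.49 for Col1a1 and 0.14 ± 0.39 for Col1a2, and neither passed (49 of 22099, or 0.222%, did). It was 0.13 and 0.22 as deposited, 0.11 and 0.20 with trimmed-mean scaling, and 0.07 and 0.16 without Exp106.

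Other genes show what the same sort separated. Ibsp was higher in the GFP-positive cells of 6 of 6 experiments, though its day 7 values were low. They were 44, 385 and 518 in GFP-negative and 75, 671 and 1758 in GFP-positive cells of Exp99, Exp101 and Exp103. At day 17 it measured 12642, 24730 and 12954 in GFP-negative and 61853, 78514 and 127044 in GFP-positive cells of Exp100, Exp105 and Exp106. The share of all probe sets that were higher in 6 of 6 experiments is not given here. The day 17 limma difference of Ibsp was 2.25 ± 0.90 with an adjusted p of 0.369, 0.0158 with the block, and 0.521 without Exp106, where the difference was 1.84. Dmp1, a matrix protein of late osteoblasts and osteocytes, measured 345, 800 and 258 against 2803, 9049 and 719 at day 17, a difference of 2.85 ± 0.87 (adjusted p = 0.183, with the block 0.0458 and without Exp106 0.0369). At day 7 it was higher in the GFP-positive cells of 1 of 3 experiments, with a difference of -0.27 ± 0.87. Phex, an osteocyte peptidase, lay too low to be tested and measured 61, 113 and 385 against 466, 1594 and 304 at day 17. Its direction in Exp106 was the reverse of that in Exp100 and Exp105.

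Lyz2, the lysozyme of macrophages, ran the other way in 5 of 6 experiments. It measured 11321, 3642 and 7280 in the day 7 GFP-negative cells (Exp99, Exp101 and Exp103) and 507, 653 and 409 in the GFP-positive cells, a difference of -3.42 ± 0.52 (adjusted p = 0.194, with the block 1 and without Exp106 0.0345). At day 17 it measured 34835, 23894 and 16146 against 4305, 4687 and 19530, with a difference of -1.58 ± 0.52 (adjusted p = 0.225 and with the block 0.226). In Exp106 it was higher in GFP-positive cells, and without Exp106 the difference was -2.52 (0.0147). The sums over gene lists from here on are not of deposited values and are compared only with each other. Summed over 16 of 16 genes of macrophages and other blood cells, the intensity was 14833 to 39599 in day 7 GFP-negative and 6730 to 7627 in GFP-positive cells, and 76251 to 135900 and 24111 to 95837 at day 17. The sums of the fractions did not overlap at day 7 and overlapped at day 17, and their part in the collagen values was not tested. Fewer cells of a type and less RNA per cell cannot be told apart in such samples.

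**Figure D3:**
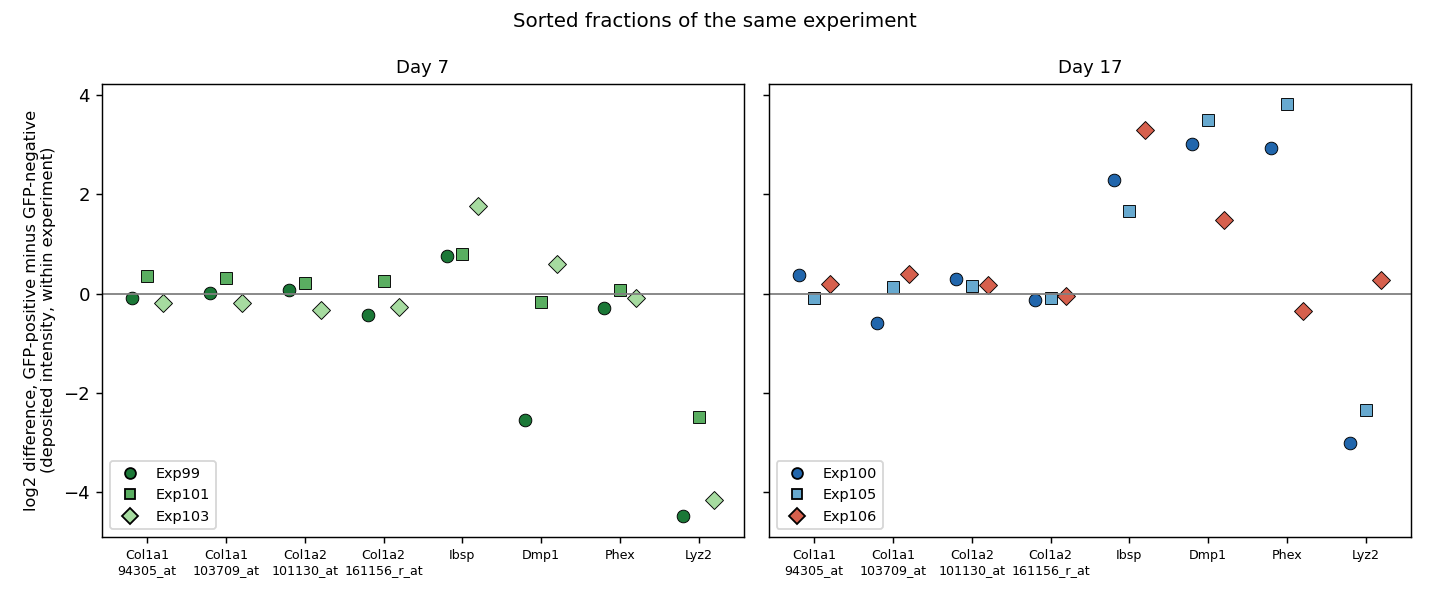
Log2 difference between the GFP-positive and GFP-negative cells of the same experiment (deposited intensity) for the 4 collagen probe sets and for Ibsp, Dmp1, Phex and Lyz2, at day 7 (left) and day 17 (right); each point is 1 experiment and 0 means equal levels. The collagen points stay between -0.60 and 0.40, while Ibsp at day 17 lies between 1.67 and 3.29.

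Sums over the other cell type lists were set beside these, on the same scale, which is not the deposited one. As deposited, Ibsp alone measured 127044 in the day 17 GFP-positive cells of Exp106, above the highest sum of its list given below. At day 17, 7 of 7 smooth muscle and pericyte genes summed to 31683 to 47492 in GFP-negative and 11832 to 12759 in GFP-positive cells, and 10 of 10 chondrocyte genes to 26613 to 39300 and 8735 to 17146. The corresponding day 7 sums were 45815 to 58472 and 53005 to 59224 for smooth muscle, and 9275 to 20963 and 5093 to 6023 for cartilage. For 14 of 14 skeletal muscle genes the sums were 18015 to 25106 and 10805 to 13433 at day 7, and 10456 to 17348 and 9376 to 15852 at day 17. Endothelial genes (8 of 8) gave 5031 to 10094 and 7297 to 10009 at day 7, and 9131 to 12900 and 7209 to 8384 at day 17. Adipocyte genes (5 of 7) gave 2112 to 2575 and 1510 to 2415 at day 7, and 3639 to 7892 and 1192 to 2708 at day 17. The 7 of 14 osteoblast and osteocyte genes measured, the others being not analysed here, summed to 5226 to 10825 and 6724 to 10356 at day 7, and to 21757 to 43627 and 89721 to 119056 at day 17. Such sums are carried by the brightest genes and do not show how many genes of a list differed. The deposited day 17 means in GFP-negative and GFP-positive cells were 16775 and 89137 for Ibsp. They were 24836 and 8050 for Acta2 (smooth muscle) and 18140 and 2311 for Matn4 (cartilage).

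Between the days the collagen messages differed more than between the fractions. The lowest of the 9 day 17 samples exceeded the highest of the 9 day 7 samples for both main probe sets: 116179 against 108878 for Col1a1 and 99049 against 87737 for Col1a2. On array A 109 of 12422 probe sets (0.877%) showed this. The order held on the other scales too, with 111513 against 103778 for Col1a1 and 93647 against 81158 for Col1a2 after trimmed-mean scaling. It did not hold for 103709_at or 161156_r_at. Within single fractions, where 10.6% (GFP-positive), 8.68% (GFP-negative) and 16.2% (unsorted) of array A probe sets had all 3 day 17 samples above all 3 of day 7, both main probe sets did in each fraction.

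In GFP-positive cells the quantile-normalised rise from day 7 to day 17 was 0.87 ± 0.35 for Col1a1 and 0.96 ± 0.28 for Col1a2, with adjusted p of 0.191 and 0.0708. As deposited it was 1.08 (2.11-fold) and 1.18 (2.26-fold), with adjusted p of 0.151 and 0.0792, and with trimmed-mean scaling 1.04 and 1.14 (0.12 and 0.052). Neither passed on any of these scales, where 1071 of 22099 probe sets (4.85%) did. For Col1a2 the side of the threshold depended on the fit: the adjusted p was 0.0487 with experiment as a random block and 0.021 without the day 7 GFP-negative sample of Exp101, in a range of 0.0184 to 0.433 over 25 alternatives. In GFP-negative cells the differences were 0.75 (adjusted p = 0.458) and 0.82 (0.282), and 96 probe sets (0.434%) passed. As deposited they were 0.95 and 0.96, and with trimmed-mean scaling 0.93 and 0.93. Without the day 7 GFP-negative sample of Exp101 they were 0.30 and 0.47. In unsorted cultures, compared on array A, they were 0.50 (0.331) and 0.59 (0.184), and 426 of 7455 probe sets (5.71%) passed. As deposited these were 0.89 and 0.84 (0.205 and 0.192), and with trimmed-mean scaling 0.78 and 0.72 (0.177 and 0.157). Without Exp106 the 6 quantile-normalised values ran from 0.50 to 0.97 and none passed, where 11.1% of probe sets did in GFP-positive, 1.84% in GFP-negative and 13.2% in unsorted cells. The deposited rises were also smaller without Exp106, at 0.835 (1.78-fold) for Col1a1 and 0.955 (1.94-fold) for Col1a2 in GFP-positive cells. They were 0.722 and 0.716 in GFP-negative cells and 0.541 and 0.488 in unsorted cultures, and none passed. Ibsp, by comparison, was 6.92 ± 0.90 higher at day 17 in GFP-positive cells (adjusted p = 0.00129) and 5.93 ± 0.90 higher in GFP-negative cells (0.0176).

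**Figure D4:**
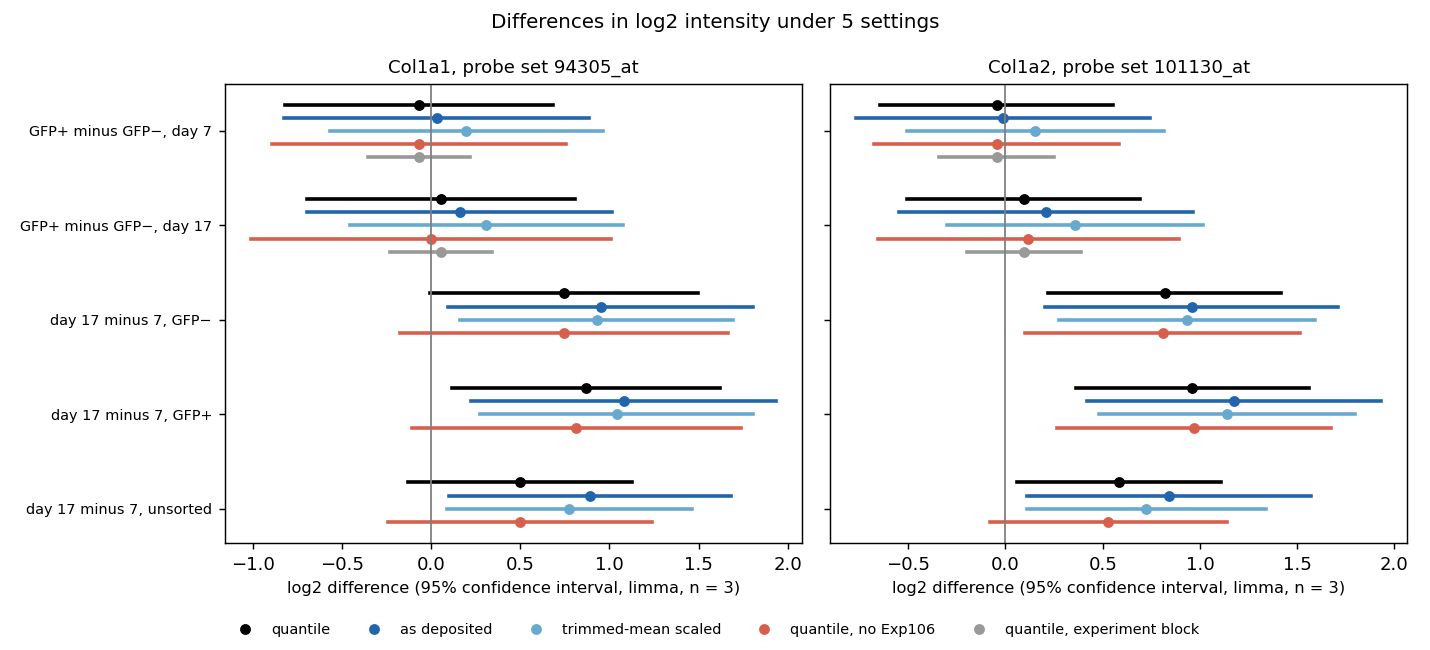
Log2 differences of Col1a1 (94305_at, left) and Col1a2 (101130_at, right) with 95% confidence intervals from limma (3 samples per group) for 5 comparisons; colours are the scale or fit. All intervals between fractions include 0, the points between days lie above 0 in each setting drawn while some of their intervals include 0, and the block, drawn for comparisons within a day, gives the narrowest intervals.

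As deposited, the unsorted culture lay between its own fractions in 1 of 6 experiments for either gene. It lay above both in 4 of 6 (Exp99, Exp101, Exp105 and Exp106), but after trimmed-mean scaling this was 3 of 6 and 2 of 6. The distance was greatest in Exp101, where the unsorted value of Col1a1 was 2.15-fold that of the GFP-positive and 2.75-fold that of the GFP-negative cells. For Col1a2 it was 2.05-fold and 2.39-fold. The limma difference between unsorted cells and the mean of both fractions at day 7 was 0.45 ± 0.26 for Col1a1 and 0.42 ± 0.21 for Col1a2 (0.39 and 0.38 as deposited, 0.25 and 0.24 with trimmed-mean scaling), and 0 of 7455 probe sets (0%; 59 at an unadjusted p under 0.05) passed. At day 17 the differences were 0.14 ± 0.26 and 0.11 ± 0.21 (0.17 and 0.06 without Exp106), and neither passed (119 probe sets, 1.6%, did). As deposited they were 0.26 and 0.15, and with trimmed-mean scaling 0.04 for Col1a1 while Col1a2 turned to -0.07. As deposited, the median of all probe sets was itself 0.23 higher in unsorted cells at day 17 and 0.12 higher at day 7. Relative to that median Col1a1 and Col1a2 were 0.27 and 0.26 higher at day 7, and at day 17 Col1a1 was 0.03 higher and Col1a2 0.08 lower.

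The 2 probe sets of each gene disagreed in Exp106. Whether its arrays were summarised or scaled differently is not given and was not tested. For Col1a1, 103709_at measured 11829, 6192 and 11690 in day 7 GFP-negative, 11966, 7700 and 10266 in GFP-positive and 14042, 12139 and 9982 in unsorted cells (Exp99, Exp101 and Exp103). At day 17 it measured 17201, 14401 and 142010 in GFP-negative, 11385, 15849 and 187511 in GFP-positive and 19694, 11282 and 187057 in unsorted cells, the last value of each being Exp106. The lowest Exp106 value was 7.21 times the highest of the other 15 samples, where for 94305_at this ratio was 1.31. For Col1a2, 161156_r_at measured 3040 to 4771 in all 15 samples outside Exp106, against 28349, 27381 and 32785 within it, a ratio of 5.74 where that of 101130_at was 1.35.

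On array A, 18.9% of probe sets had a ratio above 1, 4.43% a ratio of at least 2 and 0.362% (45 of 12422) a ratio of at least 5. The log2 gap between the probe sets of Col1a1 was 0.26 to 0.65 in Exp106 and 2.68 to 3.72 elsewhere, and for Col1a2 2.53 to 2.80 against 3.56 to 4.98. The mean of 103709_at in day 17 GFP-positive cells was 71582 with Exp106 and 13617 without it, and that of 161156_r_at 11872 and 4117. Both had wide errors, with an SE of 0.82 for the day difference of 103709_at (1.42 in GFP-positive cells, adjusted p = 0.383) and 0.74 for that of 161156_r_at (1.16, adjusted p = 0.433). Without Exp106 these day differences were 0.40 ± 0.25 and 0.29 ± 0.17.

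**Figure D5:**
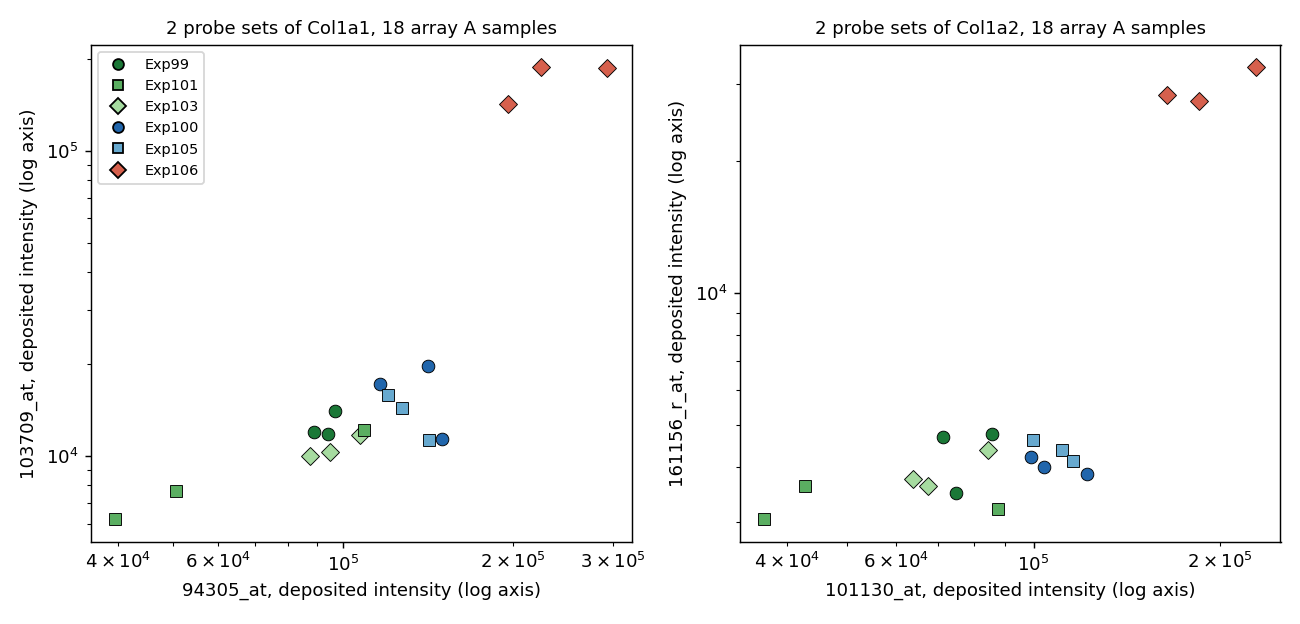
Deposited intensity of the second probe set (vertical, log axis) against the main probe set (horizontal, log axis) of Col1a1 (left) and Col1a2 (right) in the 18 array A samples, coloured by experiment. The 3 Exp106 samples leave the other 15, lying 7.21 and 5.74 times or more above them on the vertical axis.

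The other genes of collagen assembly were read from lists, by 1 probe set per gene, with the median of all 22099 tested probe sets between -0.06 and 0.00 in these comparisons. Of all probe sets tested 1.28% passed between the fractions at day 17 (3.21% with the block and 3.69% without Exp106). Between the days 4.85% passed in GFP-positive cells (11.1% without Exp106) and 0.434% in GFP-negative cells (1.84% without Exp106). The counts of each list stand beside these shares. Of the fibrillar and fibril-associated collagens 13 of 15 were tested. At day 17, 1 was higher and 1 lower in GFP-positive cells (median -0.75; with the block 1 and 4): Col11a2, a minor fibril collagen of cartilage and some osteoblasts, was higher by 4.06 ± 0.58 (adjusted p = 0.0043), with mean intensities of 487 in GFP-negative and 6072 in GFP-positive cells, and Col14a1, a fibril-associated collagen of soft connective tissue, lower by -2.10 ± 0.40 (0.0251). From day 7 to day 17 in GFP-positive cells 3 rose and 0 fell (median 0.47), among them Col11a2 by 5.71 and Col27a1 by 1.91. In GFP-negative cells 0 of 13 passed, 12 of 13 lay above 0 and the median was 1.01, and without Exp106 the count was 2.

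Of the genes that hydroxylate, fold and export procollagen 21 of 24 were tested. None passed between the fractions at day 17 (median 0.33, 16 of 21 above 0), while 4 were higher in GFP-positive cells with the block and 2 without Exp106. From day 7 to day 17 in GFP-positive cells 3 rose (median 0.46, 20 of 21 above 0), and without Exp106 the count was 10. P4ha2 and P4ha1, catalytic subunits of the prolyl 4-hydroxylase that stabilises the triple helix, rose by 2.28 ± 0.36 (adjusted p = 0.00359) and 2.27 ± 0.47 (0.0182). The mean intensity of P4ha1 was 4834 in day 7 and 28978 in day 17 GFP-positive cells. In GFP-negative cells 0 of 21 passed over the same time (median 0.26; without Exp106 1).

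For genes of procollagen cleavage, cross-linking and fibril assembly, 14 of 21 were tested. At day 17, 3 were lower and 0 higher in GFP-positive cells (median -0.39), with the same counts with the block and without Exp106. Thbs2, a matricellular protein of fibroblasts, was lower in GFP-positive cells (means of 28169 and 3289, adjusted p = 0.00145), and Aspn, a small proteoglycan that binds collagen, differed by -2.76 ± 0.45 (0.0105). With time, 1 rose and 1 fell in GFP-positive cells (2 and 1 without Exp106): Bmp1, the protease that removes the procollagen C-propeptide, rose by 1.11 ± 0.27 (0.0368) and Thbs2 changed by -2.41 ± 0.34 (0.00204). In GFP-negative cells 3 rose (4 without Exp106), among them Fmod by 1.68 and Dcn, with means of 29188 and 63547, both small proteoglycans of collagen fibrils.

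Of collagen receptors and enzymes of collagen breakdown 13 of 17 were tested, and 0 passed between the fractions at day 17 (median -0.24), while 1 was lower in GFP-positive cells with the block and 2 without Exp106. With time in GFP-positive cells 2 rose and 2 fell: the integrin subunits Itga10 and Itga1 changed by 4.03 and -3.14. Ctsk, a collagen-degrading protease best known from osteoclasts, rose by 1.04 in GFP-negative cells. Its mean intensities at day 7 and day 17 were 7482 and 15649 in GFP-negative cells, and 7237 and 13328 in GFP-positive cells. Of the regulators of the type I collagen promoters and messages 31 of 37 were tested, with 0 called between the fractions at day 17 (median -0.13; with the block 1 higher and 1 lower, without Exp106 1 higher and 2 lower of 30). From day 7 to day 17 in GFP-positive cells Msx2, a homeodomain repressor, changed by -4.44 ± 0.77 (0.00665) and Dlx3, a homeodomain activator of osteoblast genes, by 3.48 ± 0.68 (0.0128), among 1 that rose and 2 that fell (2 and 7 without Exp106). At day 7, 0 of the genes tested in any of the 5 lists passed between the fractions.

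The genes whose pattern lay nearest to the collagens were ranked by Pearson correlation of normalised log2 values over the 12 sorted samples, among 10612 genes. These values share arrays and scaling, and the correlations are descriptions. For Col1a1 the nearest were Sec16a (r = 0.958), which organises export sites of the endoplasmic reticulum, Srebf1 (0.939), a regulator of lipid synthesis, Trpc4ap (0.937), Skiv2l (0.934), Crtap (0.932), a partner of collagen prolyl 3-hydroxylase, and Naglu (0.923), a lysosomal enzyme. For Col1a2 they were Sec16a (0.971), Crtap (0.951), Col11a1 (0.939), 1700001P01Rik (0.932), Cd276 (0.928) and Furin (0.925), a proprotein convertase. Without Exp106, Srebf1 reached 0.973, Crtap 0.969 and Trpc4ap 0.966 with Col1a1, and Crtap 0.992 and Sec16a 0.974 with Col1a2. As deposited, all 12 values were lower, from 0.784 to 0.904. Crtap measured 8836 ± 4155 (SD, n = 3) and 7107 ± 2232 in day 7 GFP-negative and GFP-positive cells, and 15170 ± 2540 and 14840 ± 1750 at day 17.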

How the data were processed

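The intensities are as the authors deposited them: 1 linear whole number per probe set and array, lowest value 10, on Affymetrix MG-U74 arrays (18 A, 13 B and 13 C). How features were summarised and scaled, and any genome build, are not given in the sources used here. GEO's probe tables named 1 gene for 29131 probe sets, several for 724 and none for 6846. Values were quantile-normalised within array type as log2(intensity + 32). Normalization used all arrays of a type, also for fits that left samples out, such as those without Exp106. Probe sets that exceeded the median of the array on 3 or more arrays were tested, with limma 3.58.1 (lmFit, eBayes with trend) in R 4.3.3, on 12 sorted samples (arrays A, B and C) or 18 samples (array A). Benjamini-Hochberg adjustment ran over all tested probe sets, with calls under 0.05; the fit was tested on simulated data.

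Titles give fractions of an experiment the same name. Their deviations from group means on array A correlated with r of 0.109, 0.257 and 0.203 (Exp99, Exp101, Exp103) and 0.335, 0.447 and 0.593 (Exp100, Exp105, Exp106). Between fractions of different experiments r ran from -0.244 to 0.0922 at day 7 and from -0.54 to 0.422 at day 17. The 0.422 was GFP-positive cells of Exp100 with GFP-negative cells of Exp105, above the 0.335 within Exp100. The reverse pair gave 0.323, below the 0.447 within Exp105. Experiment was taken as a pairing by the shared names, and r does not show that the fractions of Exp100 are paired. The members and gene lists were chosen with earlier results of these data known. From each list the 2 largest called changes per comparison were named, and the 6 nearest genes per member. The settings in which deposited values were fitted without Exp106, and trimmed-mean scaling with the block, were chosen after seeing the data.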

Additional observations from a re-analysis of the deposited data

How the results depend on the processing

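Each of 16 differences (8 comparisons for Col1a1 and for Col1a2) was recomputed under other scalings, pseudocounts, filters, blocks and probe sets and with samples left out, 456 values in all: 423 kept direction and side of the threshold, 3 (Col1a1 at day 17 between the fractions, without Exp106 or its GFP-positive sample) were 0 and had no direction, 26 changed sign, 4 passed the threshold and 0 lost a call. The cause was not tested. The day 7 difference between fractions changed sign for Col1a1 as deposited (0.031, and 0.031 without Exp106 as well), with trimmed-mean scaling (0.20, and 0.20 with the fixed replicate block) and by probe set 103709_at (0.19), and for Col1a2 with trimmed-mean scaling (0.15, and 0.15 with the block) and by probe set 161156_r_at (0.003). By 103709_at the day 17 difference of Col1a1 was -0.052, its change between days -0.24 and its unsorted difference at day 17 -0.007. By 161156_r_at the unsorted differences of Col1a2 were -0.11 at day 7 and -0.17 at day 17, and the latter was -0.072 with trimmed-mean scaling, with and without the block. With single samples left out, the day 7 difference ran from -0.51 to 0.24 (Col1a1) and -0.39 to 0.20 (Col1a2), and its change to day 17 from -0.18 to 0.57 and -0.10 to 0.49. The day difference of Col1a2 in GFP-positive cells stayed at 0.96 but passed under the 75th percentile filter (adjusted p = 0.0476), with a random replicate block (0.0487) and on array A alone (0.0184), and without the day 7 GFP-negative sample of Exp101 (0.021; range of the difference with single samples left out 0.76 to 1.09). Counts of probe sets called moved by over 1.5 times under some settings: 282 at day 17 between the fractions became 24 to 1017, 49 became 0 to 234, 1071 and 96 between the days became 433 to 2385 and 17 to 389, 426 in unsorted cells became 144 to 930, and 119 became 1 to 920. At day 7, 0 became up to 4. The fixed replicate block changed no call for either collagen gene.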

Other observations

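The 45 array A probe sets that lay at least 5-fold higher in all 3 Exp106 samples than in any other sample, 103709_at and 161156_r_at among them, were set against the array by name: 29 of 45 (64.4%) ended in _r_at, against 901 of 12422 (7.25%) on the array. The largest ratios were those of probe sets for Cryl1 (32.46), Tnfrsf1a (21.42) and Hoxd10 (13.65). These features were chosen after their values were seen.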
